A study of Drosophila melanogaster with 36 samples.

Results

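The genes described here lie on chromosome 4 of Drosophila melanogaster, and a probe set of the array counted as a member when its annotation named only 1 of 42 listed chromosome 4 genes. Of these symbols, 35 had such a probe set, with 44 probe sets between them out of 18769 on the array that are not controls. The symbols pan, lgs, CaMKII, Thd1, PIP4K, anne and Arl4 had none and were dropped. Chromosome 4, also called the dot chromosome, is the smallest in the fly and hardly recombines in meiosis, so its genes tend to be inherited as a block. Its active genes sit in chromatin rich in the heterochromatin protein HP1a and are bound by Pof, a protein that recognises this chromosome. The question put to the data was whether neighbouring genes differed together between lines, as linked founder haplotypes would, and how CG32017, the member with the largest mean difference over the 5 MA pairs, compared with its neighbours.

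RNA came from wing discs, the larval tissue that forms the adult wing and the notum of the thorax, of 12 lines selected for wing shape, with 3 arrays per line and 36 in all. H (high) and L (low) are founder lines made from flies caught in Massachusetts (MA) by selecting in opposite directions for 20 generations and then making each line isogenic. A1 and A2, B1 and B2, C1 and C2, and D1 and D2 are pairs of a high and a low line from hybrid populations A to D of H crossed with L, which were left to mix for 34 generations, selected again for 25 and inbred for 10. CA high and CA low came from a separate California (CA) population. All larvae were taken at a median of 6.2 h before pupariation from cultures at 20 °C, and RNA was extracted from tubes of 100 discs. H and L are the parents of the other MA lines, so the 5 MA pairs are not independent of each other. Whether the 3 arrays of a line stand for separate cultures is not given in the labels, and p-values over them cover the spread among these samples, which may be technical.

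All 5 measured wing pouch and hinge genes and all 5 notum genes were over the signal filter described next, and of 8 eye-antennal disc genes so, eya, dac and danr were over it and ey, toy, gl and dan under it. Of the 4 over it, eya alone was called higher in the MA high lines by the test below (25%), against 4.92% of all tested probe sets. The sum of 6 hemocyte (blood cell) marker signals ran from 2915 to 4303 in the 5 MA high lines, against 5323 to 6800 in the 5 MA low lines. By the test below, 5 of the 6 markers were lower in the high lines (83.3%), against 4.76% of all tested probe sets. The other marker, NimC1, differed by 0.27 and was not called. In RNA from whole discs, fewer cells of a type and less RNA per cell cannot be told apart. The arrays of a line resembled each other most, with a mean r of 0.976 to 0.986 to their own line. The numbers in the sample titles fall in 2 runs, with H, L and the CA lines in 1 of them and all reselected lines in the other, so where a reselected line is placed between the founders, a shift between runs cannot be told apart from inheritance. Each pair lies within 1 run, with the lower numbers on the high line.

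Values are MAS5 signals, a linear brightness per probe set, and differences are high minus low on the log2 scale, where 1 stands for 2-fold. Probe sets with a mean over all arrays of at least 259.72 were tested, which kept 9385 probe sets, among them 27 member probe sets of 24 genes. The other 17 member probe sets, which include every probe set of 11 genes, were under that level. A probe set was called at a Benjamini-Hochberg adjusted p below 0.05 over all tested probe sets, from limma. Signals of different probe sets are not on a common scale and are not compared. A difference in signal can come from the amount of RNA or from a sequence difference between lines under the probes, and the arrays do not tell these apart.

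CG32017, a gene with no described function in the files, was the member with the largest difference in the 5 MA pairs. Its signal was 4688.5, 5170.6 and 4884.7 on the 3 H arrays, against 665.1, 589.7 and 734.3 on the L arrays. A1 arrays gave 4730.2, 4528.8 and 4525.2 and A2 arrays 258.7, 249.3 and 292.9. In pair B the values were 1408.7, 1401.1 and 1668.8 for B1 and 384.2, 134.3 and 187 for B2. In these 3 pairs no high array was as low as any low array, and B1 was the weakest of the 3 high lines. C1 arrays had 4419.5, 4200.5 and 3271.7, against 319.5, 178 and 200.9 for C2. D1 arrays had 3859.1, 4182.1 and 5265.9, against 318, 600.4 and 410.8 for D2. Over all MA arrays the 15 high values ran from 1401.1 to 5265.9 (median 4419.5) and the 15 low values from 134.3 to 734.3 (median 318), with no overlap.

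The high minus low difference of CG32017 was 2.89 for H and L (SE 0.45, adjusted p = 1.48e-05), 4.11 in pair A (adjusted p = 4.96e-08), 2.81 in pair B (adjusted p = 3.35e-05), 4.13 in pair C (adjusted p = 5.33e-08) and 3.36 in pair D (adjusted p = 2.12e-06), each with the same SE. Over the 5 MA pairs, with the line as the replicate, it was 3.46 ± 0.64 (SD, n = 5 pairs, adjusted p = 0.000179). It was the 1 member called in each of the 5 pairs with the same sign, which held for 1.86% of all tested probe sets. CG32017 was singled out for its MA difference in these data, so its MA calls and lack of overlap add no support. In the CA lines the signal was far lower, at 142.8, 178.8 and 258 in CA high and 10.4, 62.2 and 105.1 in CA low. The groups did not overlap there either, although each array was under the filter level, and the difference was 2.20 (SE 0.45, adjusted p = 0.000572). The probe set passed the filter through the MA lines. With single arrays left out this difference ran from 1.21 to 2.88 (largest adjusted p = 0.00712), and with 29.4 added to each signal before the logarithm it was 1.46 (adjusted p = 0.000653). The CA difference minus the mean MA difference was -1.26 (SE 0.50, adjusted p = 0.0667), which missed the threshold. With 29.4 added, it was -1.87 (adjusted p = 7.57e-05). Without CA low replicate 1 or B2 replicate 1 it also passed the threshold, and over all single arrays left out it ranged from -2.25 to -0.58.

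**Figure D1:**
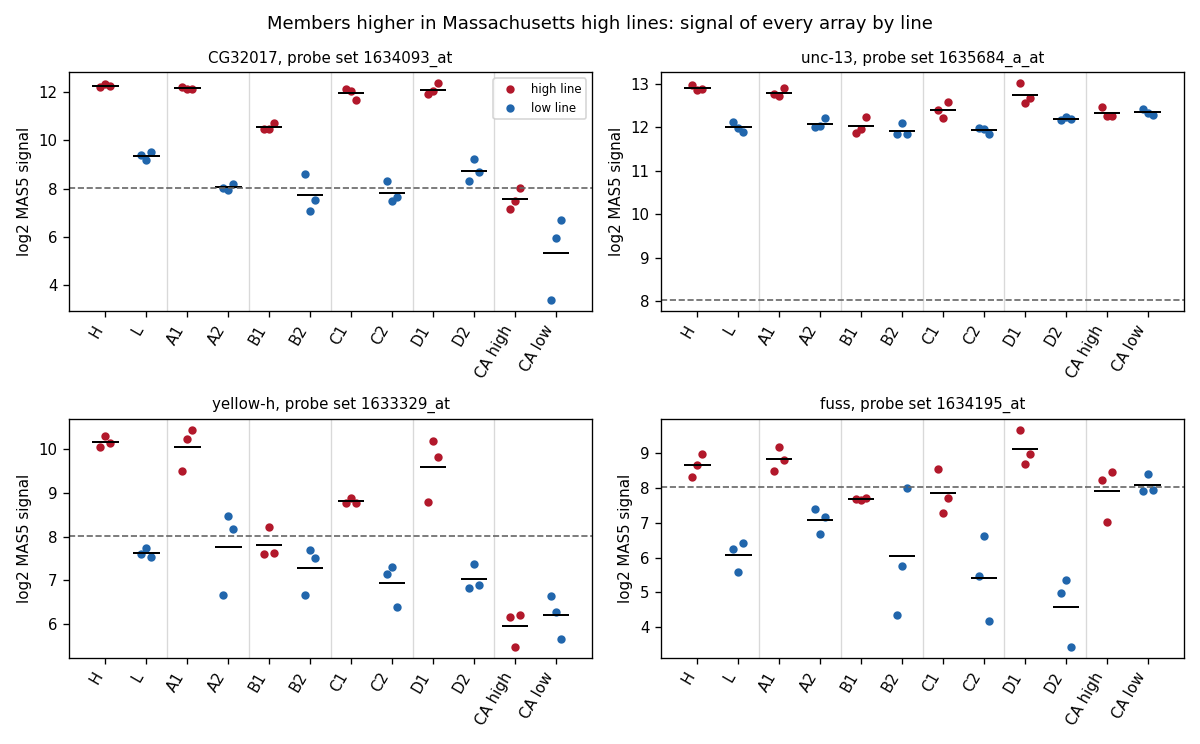
Log2 MAS5 signal (y axis) on every array by line (x axis) for CG32017, unc-13, yellow-h and fuss, with red points for high lines, blue for low lines, black bars for line means and a dashed line at the filter level of 259.72. CG32017 separated all 15 MA high arrays (1401.1 to 5265.9) from all 15 MA low arrays (134.3 to 734.3), while for unc-13 and yellow-h B1 lay near or among the low lines.

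The gene unc-13, which encodes a presynaptic protein that readies synaptic vesicles for release, was the other member called over the 5 MA pairs. It gave 8121.6, 7458.2 and 7561 on the H arrays, against 4501.5, 4077.2 and 3784.5 on the L arrays. Its mean was 7158 ± 440 in A1 against 4356 ± 362 in A2, and 4210 ± 573 in B1 against 3917 ± 421 in B2 (SD, n = 3 each). The arrays of pair B overlapped, those of pairs H and L and A did not. C1 averaged 5442 ± 690 and C2 3919 ± 191, and D1 averaged 6973 ± 1190 and D2 4715 ± 109, with no overlap in either pair. The difference was 0.91 for H and L (SE 0.11, adjusted p = 1.2e-07), 0.72 in pair A (adjusted p = 9.82e-06), 0.10 in pair B (adjusted p = 0.656), 0.47 in pair C (adjusted p = 0.00251) and 0.55 in pair D (adjusted p = 0.000437). Over the 5 pairs it was 0.55 ± 0.30 (SD, adjusted p = 0.0194), and this call was lost when the pair of H and L (0.46, adjusted p = 0.0649), pair A (0.51, adjusted p = 0.0655) or pair D (0.55, adjusted p = 0.0636) was left out. In California the means were 5184 in CA high and 5230 in CA low, a difference of -0.01. The CA difference was lower than the MA mean by the test of the difference itself (-0.56, SE 0.12, adjusted p = 0.000514). That test takes its error from arrays within lines, so it does not cover how differences vary among pairs. Pair B, at 0.10, was close to the CA value. Of 4 measured neuron marker genes, elav alone was over the filter, and it differed over the 5 MA pairs by -0.07 (adjusted p = 0.887). In single pairs elav was called lower in C1 than in C2 (-1.12, adjusted p = 0.00837), a pair in which unc-13 was called higher, and in pair B it differed by 0.64 (adjusted p = 0.175).

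These 2 calls, both higher in the high lines, made up 7.41% of the 27 tested member probe sets, against 9.69% of all tested probe sets called over the 5 MA pairs (4.92% higher and 4.76% lower). The median member difference was 0.01, against 0.00 for all tested probe sets. The same sign in all 5 MA pairs was seen for 6 of 27 member probe sets (22.2%), the share of all tested probe sets being 22.2% as well. Counted this way, the members as a whole did not stand apart from the array.

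Of the 17 member probe sets under the filter, 3 were called when every one of the 18769 probe sets was tested, a fit in which 5 of 44 member probe sets (11.4%) and 4.33% of all probe sets were called over the 5 MA pairs, and 10 members (22.7%) and 9.98% of all between H and L. The first was yellow-h, of the yellow protein family, with 1054.5, 1262 and 1134.2 in H against 193.5, 211.8 and 185.4 in L. Its mean was 1106 in A1 and 248 in A2, 229 in B1 and 163 in B2, 449 in C1 and 127 in C2, and 839 in D1 and 132 in D2. High and low arrays overlapped in pair B alone, where the difference was 0.53 (adjusted p = 0.651), and the mean over 5 pairs was 1.96 (SE 0.29, adjusted p = 0.00613). The CA difference of yellow-h was -0.25, with means of 63.1 in CA high and 76.1 in CA low, and it was lower than the MA mean (-2.21, adjusted p = 0.000926).

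Next, fuss is a corepressor gene of the Ski and Sno family. It gave 319.9, 409 and 505.8 in H against 76.5, 47.8 and 85.6 in L, and its largest difference was 4.53 in pair D, where D1 averaged 579 and D2 27.7. Its mean difference over the 5 pairs was 2.59 (SE 0.40, adjusted p = 0.00757), with 1.75 in pair A (adjusted p = 0.113) and 1.66 in pair B (adjusted p = 0.164). Then bt encodes projectin, a giant protein of muscle. Its mean was 266 in H against 73.9 in L, and the difference over the 5 pairs was 1.45 (SE 0.29, adjusted p = 0.0253). Among single pairs, H and L (1.84, adjusted p = 0.0281) and pair D (2.28, adjusted p = 0.00918) were called for bt. The 3 tested markers of adult muscle precursors summed to 7911 to 9327 in the MA high lines, against 8439 to 9976 in the MA low lines. Both genes were dim, so their differences rest on signals near the low end of the scale. Hemocyte marker signal moved with direction in the same lines, as given above, and its part in the differences of these 5 genes was not tested.

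**Figure D2:**
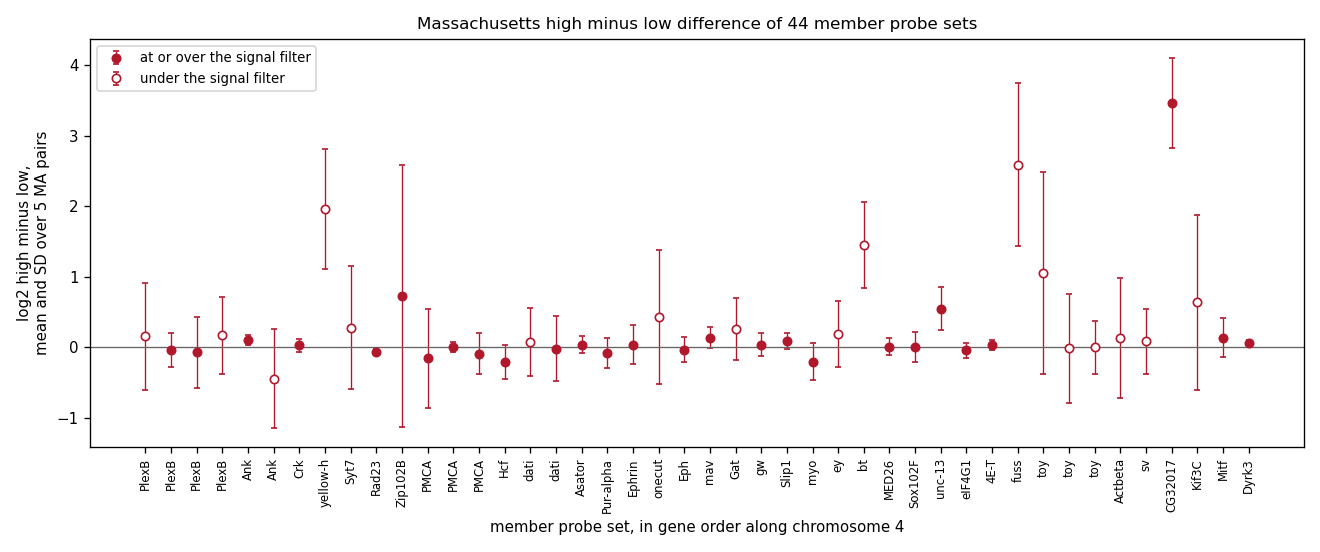
High minus low difference on the log2 scale (y axis, mean and SD over the 5 MA pairs) for all 44 member probe sets in gene order along chromosome 4 (x axis), with filled points over the signal filter and open points under it. CG32017 (3.46 ± 0.64) stood highest, with fuss (2.59), yellow-h (1.96), bt (1.45) and unc-13 (0.55) at separate places along the chromosome. Zip102B (0.73) and 1 toy probe set (1.06) also had means over that of unc-13, with wide SDs between pairs (1.86 for Zip102B and 1.43 for toy).

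By the gene order of the RefSeq gene table for the assembly Release 6 plus ISO1 MT, which lists 80 protein-coding genes on chromosome 4, the 5 genes did not form 1 run. The ranks along the chromosome were 16 for yellow-h, 50 for bt, 55 for unc-13, 59 for fuss and 73 for CG32017. Of the 3 closest tested genes on each side of CG32017, Cadps alone was called over the 5 MA pairs. On the side of the lower ranks, ATPsynbeta, the beta subunit of the mitochondrial ATP synthase, differed over the 5 MA pairs by -0.17 (adjusted p = 0.165) and 0.01 (adjusted p = 0.972) at its 2 probe sets. Zyx, a protein of actin-linked adhesions, differed by 0.03 (adjusted p = 0.672), and Cals, a cadherin-related membrane protein, by 0.06 (adjusted p = 0.588). These 3 genes thus lay close to 0.

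On the other side, Mitf, a transcription factor known for lysosomal genes, differed by 0.14 (adjusted p = 0.481) and the protein kinase Dyrk3 by 0.06 (adjusted p = 0.476). Cadps, which acts in the release of dense-core vesicles and is the last of the 80 genes, was higher in the high lines at the probe set 1631142_a_at by 1.21 (SE 0.22, adjusted p = 0.0154), and at 1628675_at it differed by 0.54 (adjusted p = 0.0702). Beside the members and Cadps, 1 more gene of the chromosome was called over the 5 pairs, CG31999 at rank 15, next to yellow-h, with a difference of 0.66 (SE 0.13, adjusted p = 0.019). In all, 2 of the 24 other tested chromosome 4 probe sets (8.33%) were called, again close to the 9.69% of the whole array.

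The line means of CG32017, unc-13 and yellow-h fell in 1 order among the 4 high reselected lines, a pattern noticed after the values were seen. A1 was highest and D1 next, with 4595 and 4436 for CG32017, 7158 and 6973 for unc-13, and 1106 and 839 for yellow-h, and the arrays of A1 and D1 overlapped at each gene. C1 followed with 3964, 5442 and 449, its arrays overlapping those of D1 at each gene. B1 was lowest with 1493, 4210 and 229, and its arrays lay under all C1 arrays for CG32017 and yellow-h but overlapped them for unc-13. The neighbour CG31999 had the same order of means, 3755 in A1, 3033 in D1, 2080 in C1 and 1945 in B1. The order was another for fuss, with D1 (579) over A1 (465), and for bt, with D1 (148) lowest.

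As a description over the 10 MA line means, which share the split into high and low, r with CG32017 was 0.91 for yellow-h, 0.87 for unc-13, 0.85 for fuss, 0.82 for CG31999 and 0.74 for bt. All 5 were picked for a high minus low difference, which alone makes such line means correlate. After the mean of the 4 high and of the 4 low reselected lines was taken out, r over the 8 lines was 0.91 for unc-13, 0.70 for yellow-h and 0.67 for CG31999, but 0.11 for fuss and -0.30 for bt. The first 3 of these genes had been singled out for sharing the order of CG32017. Other chromosome 4 probe sets, not picked for that order, reached values farther from 0 than yellow-h and CG31999, though none as far as unc-13. Among them were -0.87 for RhoGAP102A, 0.83 for CG1909 and -0.81 for Kif3C, all under the filter, and -0.72 for Rad23. Deviations of single arrays from their line means correlated between -0.26 and 0.23 over the 10 pairs of the 5 genes (median -0.04, 36 arrays). The likeness therefore lay between lines and not between arrays of a line.

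Between the founders, 8 of 27 member probe sets were called (29.6%), 5 higher and 3 lower in H, against 22.4% of all tested probe sets (10.9% higher and 11.6% lower). The median difference was 0.11 for the members and 0.04 for the array. Beside CG32017 and unc-13, these were Zip102B, PMCA, PlexB, mav, Mitf and eIF4G1. Centring each array on its median moved the median of all probe sets in H minus L to -0.201, against 0.036 as deposited, and gave 3 higher and 5 lower member calls, with 11.2% of all calls higher, against 48.4% as deposited. Small differences between H and L are therefore relative to the scaling of the arrays.

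Zip102B, a zinc transporter of the ZIP family, had the largest of them, with 12521.7, 13184 and 13304.8 in H against 994.7, 693.7 and 731.3 in L (4.03, SE 0.22, adjusted p = 4.65e-15). All 24 arrays of the reselected lines, high and low alike, lay between 265.6 and 931.1 and so with L. Both CA lines lay with H, at 13215.4, 12484.5 and 10251.3 in CA high and 12386, 13113.3 and 11306.5 in CA low. No reselected line carried the H level, and the high and low lines of pairs A to D did not differ by the test. The CA difference minus the MA mean was -0.77 (adjusted p = 0.0171), and the pairs A to D that enter this mean differed by -0.31 to 0.27. Without CA high replicate 3 or CA low replicate 2 this call was lost (largest adjusted p = 0.0735).

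The next gene along, Rnf11 at rank 24, a RING-finger gene that is no member, differed between the founders by -6.73 at the probe set 1636015_s_at (SE 0.35, adjusted p = 1.52e-15), with 35.3, 116 and 38 in H against 5915.5, 6294.2 and 5013.4 in L. Unlike its neighbour Zip102B at rank 23, it was also lower in B1 than in B2 (-2.35, adjusted p = 8.8e-06) and in D1 than in D2 (-2.83, adjusted p = 3.92e-07). In those lines B1 gave 981.9, 1174.1 and 1642.3 and D1 gave 1678.8, 580.9 and 540.9, all between the founders. A1, with a mean of 6389, and C1, with 6925, were near L, and their pairs were not called. The other tested Rnf11 probe set, 1641464_s_at, also differed between the founders (-3.85, adjusted p = 2.92e-10). There pair D was called (-1.07, adjusted p = 0.0368) and pair B was not (-0.78, adjusted p = 0.141). B1 lay at 0.33 of the way between L and H at the first probe set and at 0.01 at the second, and D1 at 0.42 and 0.14, so the probe sets of this gene placed these lines differently. In California, CA high averaged 81.2 and CA low 2351 (-4.98, adjusted p = 1.51e-12).

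PMCA, at rank 25, encodes the calcium pump of the plasma membrane. Its probe set 1627784_at read 1452.7, 1069.9 and 1474.5 in H against 3524, 3541.3 and 3316.1 in L (-1.39, SE 0.15, adjusted p = 3.49e-08), and the reselected high lines (2633.5 to 5162.9) and low lines (2381.9 to 4501.1) all lay over H. The 2 other PMCA probe sets did not differ between the founders by the test, at 0.11 (adjusted p = 0.434) and -0.06 (adjusted p = 0.902). PlexB, a receptor for semaphorins in axon guidance, showed the same split, with 4177.5, 3836 and 3920.9 in H against 9267.8, 7254.1 and 6441.5 in L at 1626676_at (-0.93, SE 0.12, adjusted p = 4.16e-07) and 0.24 (adjusted p = 0.301) at its other tested probe set. No reselected line came near H at that PlexB probe set either. Founder differences at 1 probe set of a gene and not at another were thus found for both genes.

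The TGF-beta family ligand gene mav read 13999.7, 14079.7 and 14449.1 in H against 11098.5, 11295.6 and 10077.7 in L (0.39, adjusted p = 0.000164). Mitf read 2842.6, 2474.6 and 2627.6 in H against 2019.9, 2094.1 and 1687 in L (0.46, SE 0.15, adjusted p = 0.0255). The translation initiation scaffold gene eIF4G1 read 33152.9, 31590.5 and 32533.8 in H against 37991.5, 36653.1 and 37540.6 in L (-0.21, adjusted p = 0.0322). The founders did not overlap at these genes, but the genes were picked for their founder call, so this adds no support. None of the 3 calls held under every setting. With centred arrays mav (0.15, adjusted p = 0.319) and Mitf (0.22, adjusted p = 0.36) were not called, with quantile normalization eIF4G1 was not (-0.16, adjusted p = 0.117), and eIF4G1 was lost without any 1 of the 6 founder arrays. The call of Mitf was lost without H replicate 1 or 3 or L replicate 3 (largest adjusted p = 0.143).

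**Figure D3:**
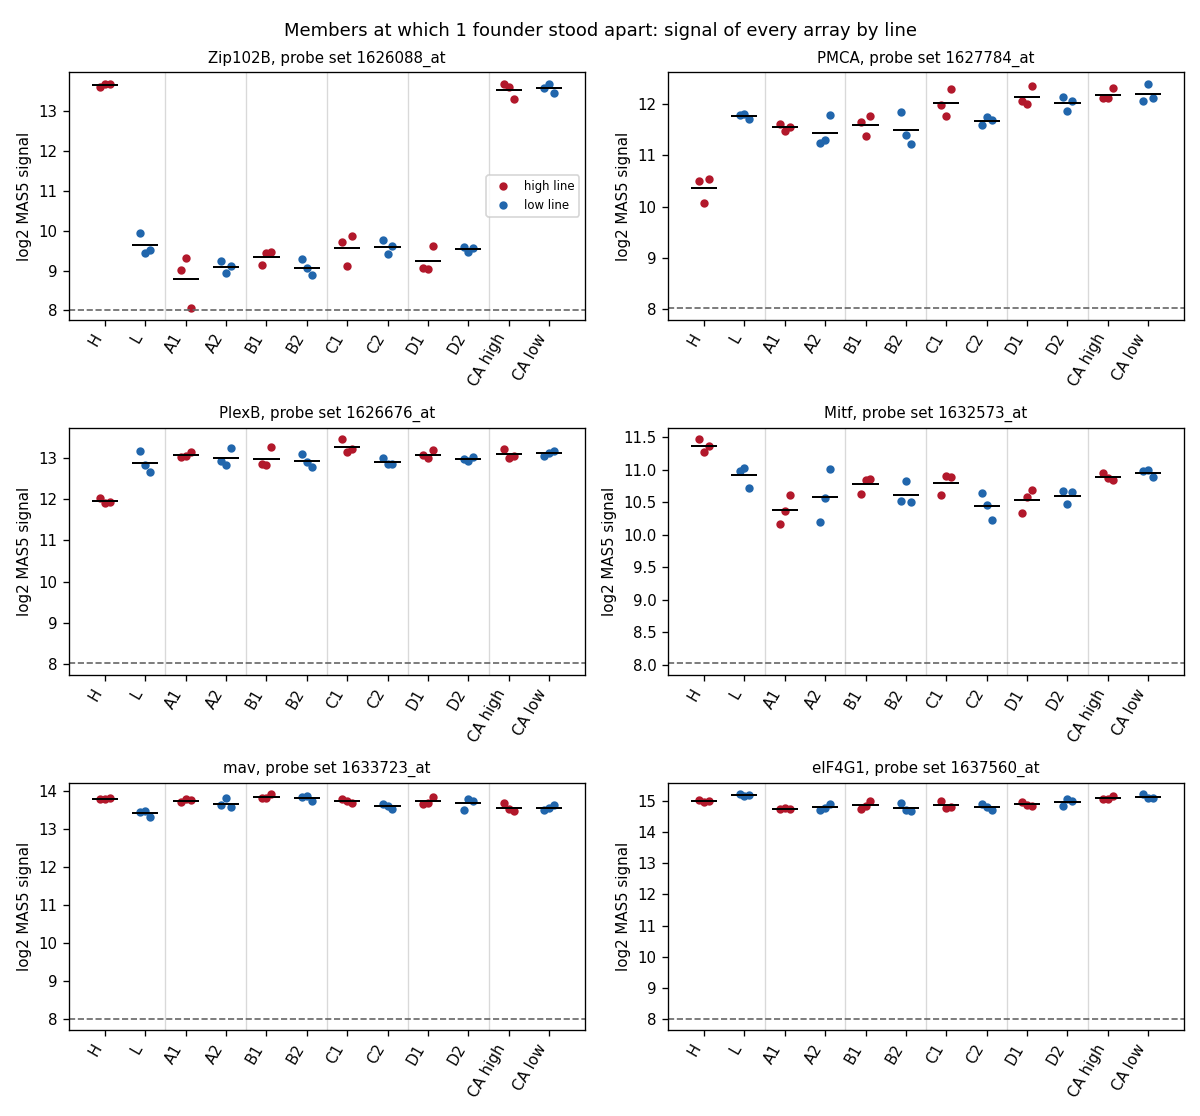
Log2 MAS5 signal (y axis) on every array by line (x axis) for 6 members called between the founders, with red points for high lines, blue for low lines, black bars for line means and a dashed line at the filter level. For Zip102B, PMCA and PlexB the H arrays stood apart from L and from all reselected lines (for Zip102B 12521.7 to 13304.8 in H, 265.6 to 931.1 in the reselected lines).

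Each reselected line was placed between the founders at each member called in H minus L, with 0 for the L mean and 1 for the H mean. CG32017 lay at 0.97 in A1, 0.40 in B1, 0.89 in C1 and 0.94 in D1, and the 4 low lines lay beyond L, from -0.56 to -0.22. For unc-13 the high lines lay at 0.88, 0.03, 0.44 and 0.83 in the same order, and the low lines from -0.08 to 0.22. In contrast, Zip102B, PlexB, PMCA and Mitf lay nearer L in all 8 reselected lines. At mav, 7 of the 8 lay nearer H, C2 being the exception at 0.49, and at eIF4G1 all 8 lay beyond H, from 1.16 to 2.15. The called members of the high lines thus lay on both sides. In the low lines the positions nearer H were all at mav and eIF4G1, whose founder differences were small and not called under every setting.

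Counted over the 8 called members, 4 were nearer H in A1, 2 in B1, 3 in C1 and 4 in D1, against 2 in A2, 2 in B2, 1 in C2 and 2 in D2. That is 40.6% of 32 positions in the high lines and 21.9% in the low lines. The array as a whole, with 2106 probe sets called in H minus L, had shares of 59.5% in the high lines and 21.2% in the low lines. For all 17 called probe sets of chromosome 4, members included, they were 36.8% and 17.6%. The high line shares of the other arms ran from 55.0% on 3R to 66.1% on 2R, so the called chromosome 4 genes gave a lower share nearer H in the high lines, a difference that was not tested. The member share in the high lines was 25% when only differences of at least 2-fold between H and L were counted, and 21.9% with centred arrays. In the low lines it was 0% for differences of at least 2-fold, 6.25% with centred arrays and 10.7% after quantile normalization.

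**Figure D4:**
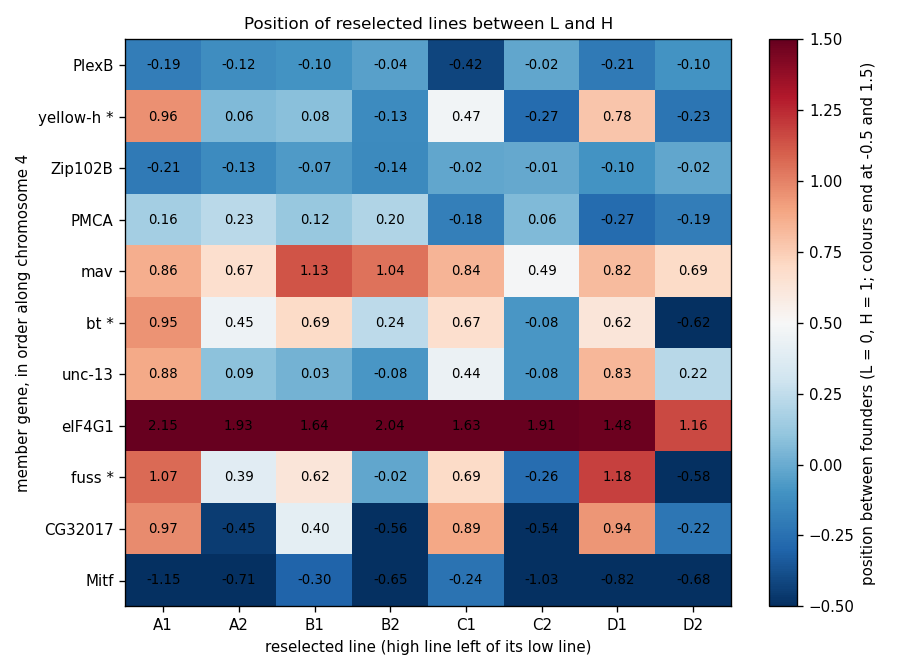
Place of each reselected line (x axis, each high line left of its low line) between the L mean (0) and the H mean (1) for members in gene order down the chromosome (y axis), in colour and as a number; an asterisk marks a gene under the signal filter. CG32017 was nearer H in A1, C1 and D1, unc-13 and yellow-h in A1 and D1 alone, and bt and fuss in every high line. Zip102B, PlexB, PMCA and Mitf were nearer L in all 8 lines.

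Neighbouring called genes were on the same side in 22 of 48 comparisons for the members (45.8%, 6 neighbouring pairs in 8 lines) and in 54 of 104 for all chromosome 4 genes (51.9%). Each gene entered with its brightest probe set, so PMCA is not counted, although Zip102B and the called PMCA probe set were both nearer L in all 8 lines. Rnf11, which lies between them, was also nearer L in all 8 lines at its tested probe sets (highest 0.42 and 0.14, in D1). That run was noticed after the values were seen. On the other arms, neighbouring called genes were on the same side in 8700 of 13376 comparisons (65.0%). In these counts, given without a test, neighbours along chromosome 4 were not on the same side more often than neighbours elsewhere. Such shares also depend on how many genes lie nearer H, in the high lines 40.6% for the members and 59.5% for the array. They are therefore not a measure of linkage alone. The member pairs also hold mav, Mitf and eIF4G1, whose founder calls did not hold under every setting.

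Levels were compared in the same way. Over the 12 line means, r between neighbouring tested members had a median of 0.10 (23 pairs, quartiles -0.21 and 0.25), against 0.12 for all 276 pairs of tested members and 0.03 for 7146 neighbouring pairs on the other arms (quartiles -0.24 and 0.32). An r over 0.5 was found for 13% of the neighbouring members for 19% of the 42 neighbouring pairs of all tested chromosome 4 genes (median 0.13) and for 12.6% of neighbours on the other arms. Over the 8 reselected lines alone the median was 0.21 for neighbouring members, 0.21 for all pairs of members, 0.23 for neighbouring chromosome 4 genes and 0.04 for neighbours on the other arms. Neighbouring members were thus about as alike as members in general in both sets of lines. For deviations of arrays from their line means, the median r was 0.14 for all pairs of members and -0.01 for neighbouring members. It was 0.02 for neighbours on the other arms. These r values are descriptions, since genes on 1 array share its hybridisation and scaling. The highest were 0.76 for Pur-alpha, a nucleic acid binding protein, with Ephrin, and 0.63 for Ephrin with Eph, a membrane-bound ligand and its receptor tyrosine kinase. Array deviations within lines correlated as strongly in those pairs (0.68 and 0.71), so the likeness was not one between lines alone. For Hcf, a chromatin cofactor, with the zinc-finger gene dati, r was 0.62 between lines and 0.04 within them. By the test of any difference among the 12 lines, dati did not vary (adjusted p = 0.185) and Hcf passed narrowly (adjusted p = 0.0401). The lowest r was -0.64, for Rad23, which carries ubiquitinated proteins to the proteasome, with Zip102B. CG32017 had r of 0.10 with 4E-T, a partner of the cap-binding protein eIF4E, and 0.04 with Mitf, the tested members on either side of it.

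**Figure D5:**
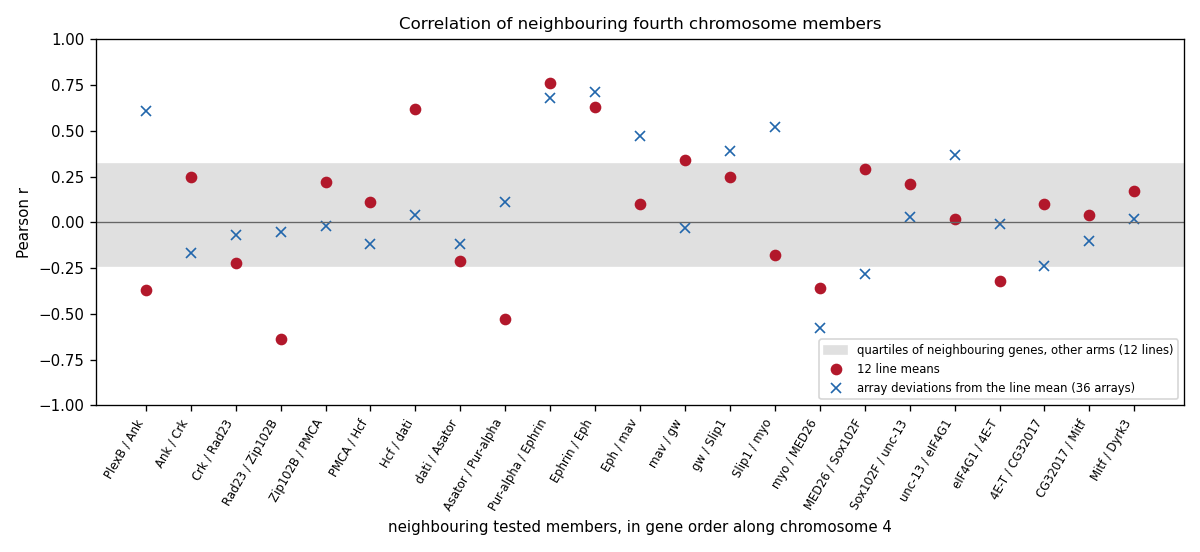
Pearson r (y axis) of each pair of neighbouring tested members in gene order (x axis), with red points for r over the 12 line means, blue crosses for r of array deviations from line means (36 arrays), and a grey band for the quartiles of neighbouring genes on other arms (-0.24 to 0.32). Most pairs lay in or near the band, and the pairs of Ephrin were high in both measures.

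Among the 12 lines in any pattern, 21 of 27 member probe sets varied (77.8%), against 64.5% of all tested probe sets. Those that did not pass were Crk, dati, Asator, Pur-alpha, Sox102F and 4E-T, which hold an adaptor of tyrosine kinase signalling (Crk) and a Sox transcription factor (Sox102F) among them. On the array as a whole, too, far more probe sets varied among the lines than were called over the 5 MA pairs (9.69%). These shares come from unlike tests. The test among the 12 lines takes its error from arrays within lines, and that of the 5 MA pairs has the line as the replicate.

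The single reselected pairs added few calls, named here after their values were seen. In pair A 3 members were called (11.1%, against 15.7% of all tested probe sets), Ephrin joining CG32017 and unc-13 at 0.42 (SE 0.13, adjusted p = 0.0278). The Ephrin call was not made when every probe set was tested, and the pair A count was 2 with centred arrays and with quantile normalization. In pair B CG32017 alone was called (3.7%, array 12.7%), and in pair D CG32017 and unc-13 (7.41%, array 10.0%). In pair C there were 5 calls (18.5%, array 14.2%), the further 3 being gw, a protein of microRNA silencing, at 0.26 (adjusted p = 0.00753), Ank, which ties membrane proteins to spectrin, at 0.18 (adjusted p = 0.0446), and PlexB at 0.37 (adjusted p = 0.0321). All the calls of members in pairs A to D were higher in the high line, where 7.76% of all tested probe sets were called higher in pair A, 6.30% in pair B, 6.80% in pair C and 4.98% in pair D. The pair C count was 2 or 3 without C1 replicate 1 or 2 or C2 replicate 2 or 3, and PlexB was not called there without C1 replicate 1 or C2 replicate 2 or 3 (largest adjusted p = 0.189). PlexB was not called with centred arrays (adjusted p = 0.0693) or with every probe set tested (adjusted p = 0.0545) either, and centring left 2 of the 5 calls of pair C.

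In the California pair 3 member probe sets were called (11.1%, array 17.0%), CG32017 higher and PMCA and Dyrk3 lower in CA high. PMCA, at the probe set 1632285_at, read 7477.4, 8440.7 and 6783.9 in CA high against 10545.6, 10517.3 and 9525.4 in CA low (-0.43, SE 0.09, adjusted p = 0.000993). Its other probe sets, 1627784_at (0.00, adjusted p = 0.996) and 1634818_s_at (-0.39, adjusted p = 0.4), were called neither in this pair nor in CA minus MA. Dyrk3 read 4059, 3945.4 and 4205.3 in CA high against 5008.6, 5210 and 5112.9 in CA low (-0.33, SE 0.09, adjusted p = 0.0128). The arrays of the pair did not overlap at the called probe set of either gene, both picked for this call. Both differences were lower than the MA mean by the test of the difference, at -0.45 for PMCA (adjusted p = 0.00149) and -0.39 for Dyrk3 (adjusted p = 0.00563). In all, 4 member probe sets were called in CA minus MA (14.8%, array 22.8%), namely these, unc-13 and Zip102B, each with the lower difference in California. This test takes its error from arrays within lines and has only the CA lines for California. It therefore does not cover how differences vary among pairs of a population. For Zip102B the CA difference of -0.04 lay within the range of pairs A to D (-0.31 to 0.27), and H minus L was 4.03. With centred arrays none of the 4 was called, and the Dyrk3 call in the California pair was lost without CA high replicate 2 (adjusted p = 0.053).

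The remaining members included several signalling and regulatory genes. The TGF-beta family ligand gene myo, over the filter, differed over the 5 MA pairs by -0.20 (adjusted p = 0.299), and the ligand gene Actbeta, under the filter, by 0.13 (adjusted p = 0.912). The Pax6 genes ey and toy, which direct eye formation, had mean signals of 72.3 for ey and 51.7 for toy, under the filter. They differed over the 5 pairs by 0.19 for ey (adjusted p = 0.826) and by 1.06, 0.00 and -0.01 for the 3 toy probe sets (smallest adjusted p = 0.302). The Pax2 gene sv differed by 0.09 (adjusted p = 0.914). No difference between high and low lines was detectable at these signals. Apart from CG32017, unc-13 and Zip102B (0.73, adjusted p = 0.519), the tested members differed over the 5 pairs by at most 0.21 on the log2 scale, that of Hcf being -0.21 (adjusted p = 0.443).

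Of 18 listed genes that act on the chromatin of chromosome 4 or of heterochromatin, 15 were measured and 14 tested. Over the 5 MA pairs 1 was called (7.14%, array 9.69%), the histone deacetylase gene HDAC1, lower in the high lines (-0.24, SE 0.04, adjusted p = 0.0162). The median of the list was 0.06. Pof itself differed by 0.05 (adjusted p = 0.601), and its line means lay between 2670 and 3050. Pof was not among the 8 chromatin genes called among the 12 lines (57.1%, array 64.5%).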

How the data were processed

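Total RNA of wing discs was labelled and hybridised to 1 Affymetrix array per sample, 36 in all. Each deposited value is a linear intensity, the MAS5 signal per the submitters' processing notes, whose version is not given in the sources used here. Nothing was 0 (0.3 to 166060.2), and array medians ran from 243.2 to 433.5. Precision is limited by how many arrays there are. Of 18952 probe sets, 183 controls were left out, and log2 was taken with no pseudocount. Probe sets whose mean log2 was at least the median (a signal of 259.72) were tested. In R 4.3.3, limma 3.58.1 fitted 1 mean per line over 36 arrays, with a variance trend (24 residual and 6.34 prior degrees of freedom). The 5 MA pairs were fitted on 10 line means with the pair as a block. The fit was tested on simulated data.

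Probe sets took gene names from the platform's annotation and gene order from the RefSeq gene table. Members and gene lists were chosen with earlier results of these data known. Named were CG32017, the 3 tested genes on each side of it, members called in H minus L, the 5 MA pairs, CA or CA minus MA, ey, toy, Pof and called chromatin genes; CG31999, Rnf11, the genes under the filter and those of single pairs were added after their values were seen, as were the examples among neighbouring and remaining members. Where a gene has several tested probe sets, the one with the highest mean signal stands for it in gene counts. Arrays sharing a replicate number did not deviate together (r of -0.06 to 0.19, 3 of 18 over 0.1), so the number was no block. Alternatives covered scaling, pseudocount, filter, variance trend, line pairs, replicate block and each array left out.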

Additional observations from a re-analysis of the deposited data

Results flagged for a closer look

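At 10 named member probe sets, the 5 MA high lines, 5 MA low lines and 5 pair differences were searched for 1 value far from the other 4, and 8 of 30 such groups held one, where chance flags about 1 in 20. These probe sets were named for calls in such differences, and the groups of signals and of differences share lines, so that rate does not apply to them. H stood apart from the other high lines at Zip102B, with a log2 signal of 13.67 against 9.57 for the nearest line, and at PlexB (1626676_at), with 11.96 against 12.98. B1 stood apart at CG32017, with 10.54 against 11.94 for the nearest high line. The pair of H and L stood apart from the reselected pairs at Zip102B (4.03, nearest 0.27), PMCA at 1627784_at (-1.39, nearest 0.10), PlexB (-0.93, nearest 0.06) and mav (0.39, nearest 0.14). At Dyrk3 the low line L, at 12.45, lay over the others, which were at most 12.32.

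By the test of CA minus MA, the high minus low difference of 4 of 27 member probe sets was called (14.8%, against 22.8% of all tested probe sets). With centred arrays none of them was called. The values were -0.77 for Zip102B, -0.45 for PMCA at 1632285_at, -0.56 for unc-13 and -0.39 for Dyrk3. For Zip102B the MA mean holds 4.03 for H minus L, beside -0.31 to 0.27 in pairs A to D.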

How the results depend on the processing

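No value changed direction among the results recomputed under the alternatives. Member calls over the 5 MA pairs were 2, but 5 with no filter on signal and 1 with a stricter filter that kept fewer probe sets or without the pair of H and L, pair A or pair D. With no filter D1 minus D2 had 5 calls in place of 2, and with the stricter filter it had 1 and B1 minus B2 had 0. CG32017, with a mean signal of 709, was under the stricter filter and so was not tested there. Centred arrays left 2 calls in C1 minus C2 in place of 5, 1 in the CA pair in place of 3 and 0 in CA minus MA in place of 4. Single arrays left out gave 6 to 9 calls for H minus L, 2 to 4 for A1 minus A2, 1 to 4 for B1 minus B2 (more without B1 replicate 3, B2 replicate 1 or C1 replicate 3), 2 to 6 for C1 minus C2 (fewer without C1 replicate 1 or 2 or C2 replicate 2 or 3), 2 in each case for D1 minus D2 and the 5 MA pairs, 2 to 3 for CA, 3 to 7 for CA minus MA (7 without B2 replicate 1) and 19 to 23 among the 12 lines. The share of positions nearer H was 21.9% in the high lines with centred arrays and 25% for differences of at least 2-fold. In the low lines it was 6.25% with centred arrays, 10.7% after quantile normalization, 7.5% with no filter and 0% for differences of at least 2-fold. Leaving out arrays gave 32.1% to 43.8% in the high lines and 10.7% to 25% in the low lines, where H replicates 1 and 2 and every L replicate moved it. The median r of neighbouring members was 0.07 among members that varied, an alternative chosen after seeing the data. With the replicate number as a block the 5 MA pairs had 2 member calls and H minus L had 8, and no other count changed. Beyond CG32017 being left out by the stricter filter, the cause of these shifts was not tested.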
